A study of Danio rerio with 6 samples.

Results

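The SLC4 genes encode the bicarbonate transporters of the plasma membrane. They were examined here in whole zebrafish embryos exposed to FBSA (perfluorobutane sulfonamide), a perfluorinated compound with a short carbon chain. The family was taken as the row ENSDARG00000028173, which carries the symbol SLC4A2, together with the identifiers that a zebrafish gene-name table gives as slc4a1b, slc4a2b, slc4a4a, slc4a4b, slc4a5b, slc4a7, slc4a8, slc4a10a or slc4a10b. Case was ignored, and a capital symbol without a paralogue letter was counted. This gave 12 of the 24462 gene identifiers in the table. The capital symbols SLC4A1, SLC4A2, SLC4A4 and SLC4A5 each belong to 2 identifiers, and the table does not say which of them is the a and which the b paralogue. Each gene is therefore named by its symbol and identifier, and reads that match both copies of a pair may have been split between them, which was not checked.

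The FBSA group was 3 libraries from Tropical 5D wild-type embryos held in 47 µM FBSA from 8 h after fertilization. The control group was 3 libraries from embryos of the same line kept without FBSA. Embryos of both groups were freed of the chorion at 4 h, were in 0.5% methanol, and were harvested at 48 h in pools of 10 whole embryos per library, one library per pool. RNA was measured by 3′ RNA sequencing, which reads one end of each transcript, and values are read counts divided by 1 size factor per library (normalized counts). Each library held 23906021 to 33356411 reads in genes. Nothing in the labels says whether the pools came from separate clutches, so a p-value reflects only how far these particular pools differ.

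Bicarbonate is the main buffer of body fluids, and SLC4 proteins carry it across membranes to set pH inside and outside the cell. In mammals the family falls into chloride-bicarbonate exchangers (SLC4A1, SLC4A2 and SLC4A3), electrogenic sodium-bicarbonate cotransporters (SLC4A4 and SLC4A5) and electroneutral sodium-driven transporters (SLC4A7, SLC4A8 and SLC4A10). SLC4A1 is band 3 of the red cell membrane, and SLC4A8 and SLC4A10 are known from mammalian neurons. In zebrafish, skin ionocytes take up ions and move acid and base with the help of slc4a1b and slc4a4b.

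The family was selected on the difference between the FBSA and control libraries, the same values given below. The fold changes of its members are therefore a description, and no test on them supports anything. Of the 12 genes, 1 was higher and 1 was lower past the threshold (limma, Benjamini-Hochberg adjusted p under 0.05 over all 16890 genes tested), and 10 were not past it. Over all genes tested, 0.705% were called, 0.568% as higher and 0.136% as lower, and nothing is read from the members' count against this. All 12 genes passed the filter on low values, which asked for a normalized count of 10 or more in 3 libraries or above. The median log2 fold change of the 12 was 0.21, against −0.0009 for all genes tested, with 7 positive and 5 negative values. All FBSA libraries lay above all controls in 3 genes and below all controls in 3, against 10.0% and 9.91% of all genes tested. In either direction 6 genes were apart and 6 overlapped, against 19.9% of all genes tested that were apart.

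**Figure D1:**
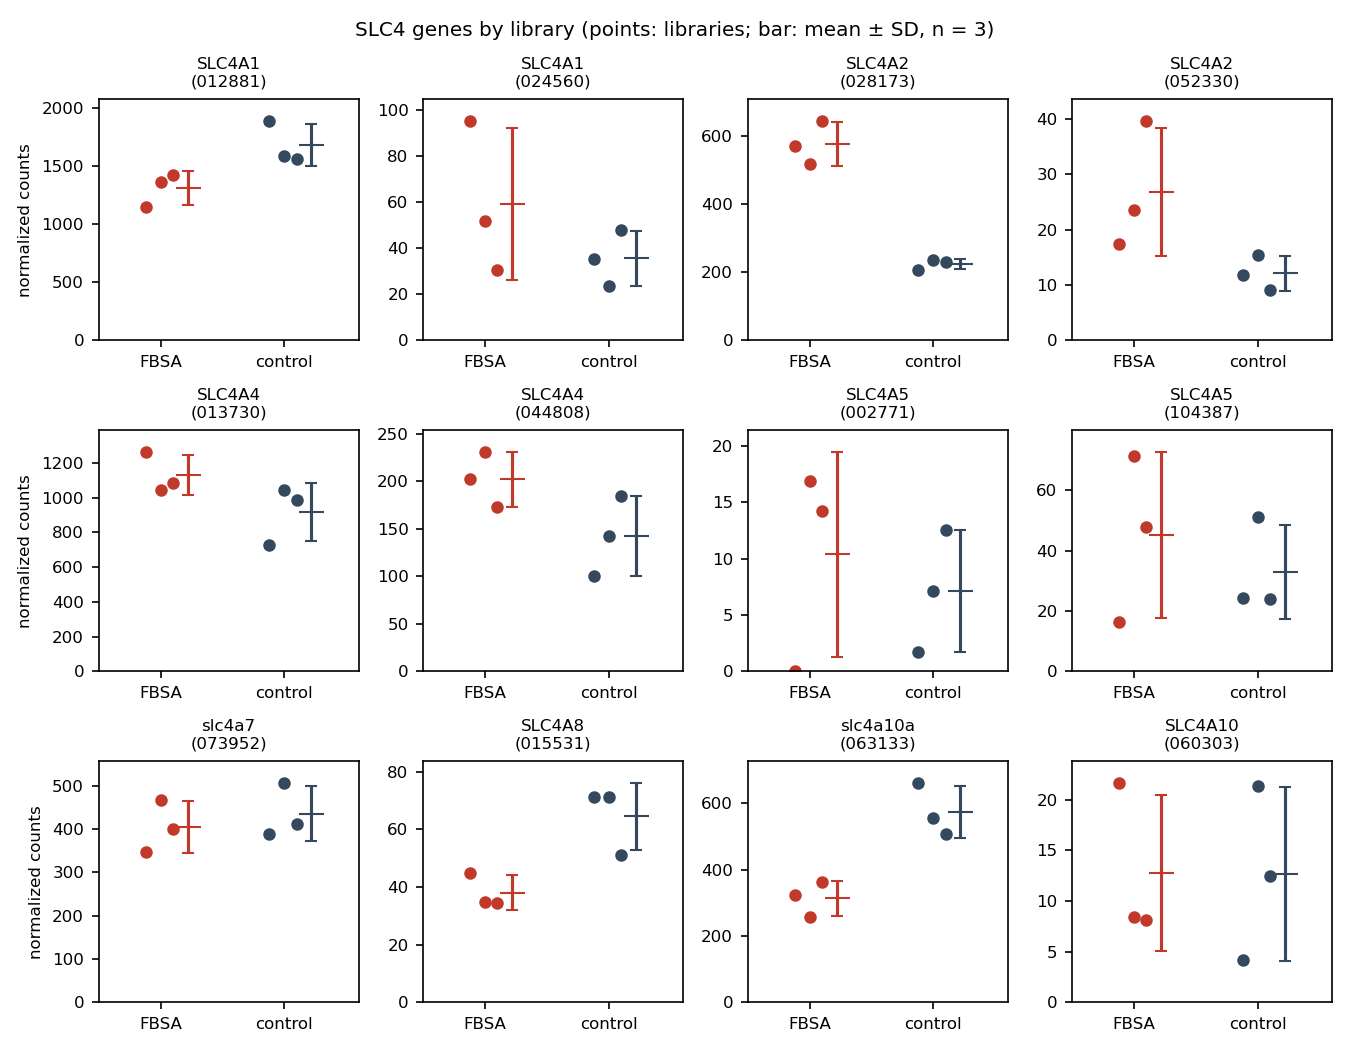
Normalized counts (vertical axes, from 0) of the 12 SLC4 genes in the 3 FBSA libraries (left, red) and the 3 control libraries (right, dark), with the mean ± SD beside the points; the digits in brackets end each gene's identifier. SLC4A2 (ENSDARG00000028173) is the gene with the widest gap upward, at 516 to 644 with FBSA and 207 to 237 in control, and slc4a10a lies lower with FBSA in every library.

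Among the chloride-bicarbonate exchangers, SLC4A2 (ENSDARG00000028173) was the gene called as higher. In mammals SLC4A2 is a widely expressed exchanger that loads cells with acid by exporting bicarbonate. It had 571, 516 and 644 normalized counts in the FBSA libraries, against 207, 237 and 229 in the control libraries. Every FBSA library was well above every control library, and the groups did not overlap. The mean was 577 ± 64.2 normalized counts with FBSA and 225 ± 15.6 in control (SD, n = 3 each). On the log2(normalized count + 1) scale the fold change was 1.35 ± 0.16 (SE), or 2.56-fold. It was the 29th largest of the 96 increases past the threshold. The limma adjusted p was 0.00209, given as one of the values behind the choice. SLC4A2 stayed past the threshold under all 17 alternative settings, including each library left out in turn, with log2 fold changes from 0.95 to 1.47.

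The other gene with the symbol SLC4A2, ENSDARG00000052330, was measured by far fewer reads. It had 17.3, 23.5 and 39.6 normalized counts with FBSA, against 11.7, 15.4 and 9.09 in control, so the groups did not overlap here either. Its log2 fold change was 1.04 ± 0.54 (SE), with a limma adjusted p of 0.43, so the call did not pass. FBSA replicate 3 was the highest library for both copies.

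SLC4A1 (ENSDARG00000012881) was on the other side of the control libraries. Its counts were 1148, 1362 and 1425 with FBSA, against 1893, 1586 and 1568 in control, without overlap. The log2 fold change was −0.36 ± 0.13 (SE; limma adjusted p = 0.245), not past the threshold, and after slc4a10a it was the member with the next smallest adjusted p. The second identifier with this symbol, ENSDARG00000024560, had 95.2, 51.6 and 30.5 normalized counts with FBSA and 35.2, 23.7 and 47.7 in control. These groups overlapped, and FBSA replicate 1 alone stood above all other libraries (log2 fold change 0.62 ± 0.45 SE).

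The electrogenic cotransporter genes had positive log2 fold changes in both SLC4A4 copies, neither past the threshold. SLC4A4 proteins move sodium together with bicarbonate, in mammals above all across kidney and pancreas epithelia. ENSDARG00000013730 had 1263, 1045 and 1086 normalized counts with FBSA, against 729, 1043 and 984 in control. The lowest FBSA library exceeded the highest control only narrowly, and control replicate 1 was the low one (log2 fold change 0.31 ± 0.15 SE; limma adjusted p = 0.392). ENSDARG00000044808 had 203, 231 and 173 normalized counts with FBSA, against 101, 142 and 185 in control, with overlap (log2 fold change 0.53 ± 0.25 SE).

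Both SLC4A5 copies had few reads. In mammals SLC4A5 is a cotransporter of the choroid plexus. ENSDARG00000104387 ran from 16.4 to 71.3 normalized counts with FBSA and from 23.9 to 51.0 in control, with overlap. ENSDARG00000002771 had no read in FBSA replicate 1, which allows up to 3.69 reads (exact Poisson bound, 95%, counting error only), and 18 and 14 reads in the other FBSA libraries. In control it had 2, 6 and 11 reads. The log2 fold change of ENSDARG00000002771 was −0.04 ± 1.19 (SE), and it kept its sign under 11 of 16 alternative settings.

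Among the electroneutral sodium-driven transporters, slc4a10a (ENSDARG00000063133) was the gene called as lower. Its mammalian counterpart brings bicarbonate into neurons and choroid plexus cells. It had 323, 256 and 362 normalized counts in the FBSA libraries, against 662, 555 and 509 in the control libraries. The groups did not overlap, and the highest FBSA library lay well under the lowest control. The mean was 314 ± 53.4 normalized counts with FBSA and 575 ± 78.3 in control (SD, n = 3 each). The log2 fold change was −0.88 ± 0.17 (SE), or 1.84-fold lower, the 10th largest of the 23 decreases past the threshold. Its limma adjusted p of 0.0414 lies just inside the threshold. The call was lost without any 1 of the 6 libraries (limma adjusted p from 0.0516 without FBSA replicate 3 to 0.15 without FBSA replicate 2), while the log2 fold change stayed between −0.99 and −0.74.

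SLC4A8 (ENSDARG00000015531), a sodium-driven chloride-bicarbonate exchanger of mammalian neurons, lay on the same side as slc4a10a. It had 45.0, 34.7 and 34.6 normalized counts with FBSA, against 71.3, 71.2 and 51.1 in control, without overlap. The log2 fold change of −0.74 ± 0.33 (SE) was not past the threshold (limma adjusted p = 0.349).

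The remaining 2 genes of this class overlapped between groups. The gene slc4a7, an electroneutral cotransporter in mammals, had 347, 467 and 400 normalized counts with FBSA, against 387, 506 and 412 in control (log2 fold change −0.11 ± 0.17 SE). The sparse gene SLC4A10 (ENSDARG00000060303) had 21.6, 8.45 and 8.13 normalized counts with FBSA, against 4.19, 21.4 and 12.5 in control (log2 fold change 0.11 ± 0.74 SE). The coefficient of variation of SLC4A10 was 60.5% with FBSA and 67.7% in control, where counting alone would give 26.7% and 29.7%, and a difference between the groups was not detectable over this spread.

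**Figure D2:**
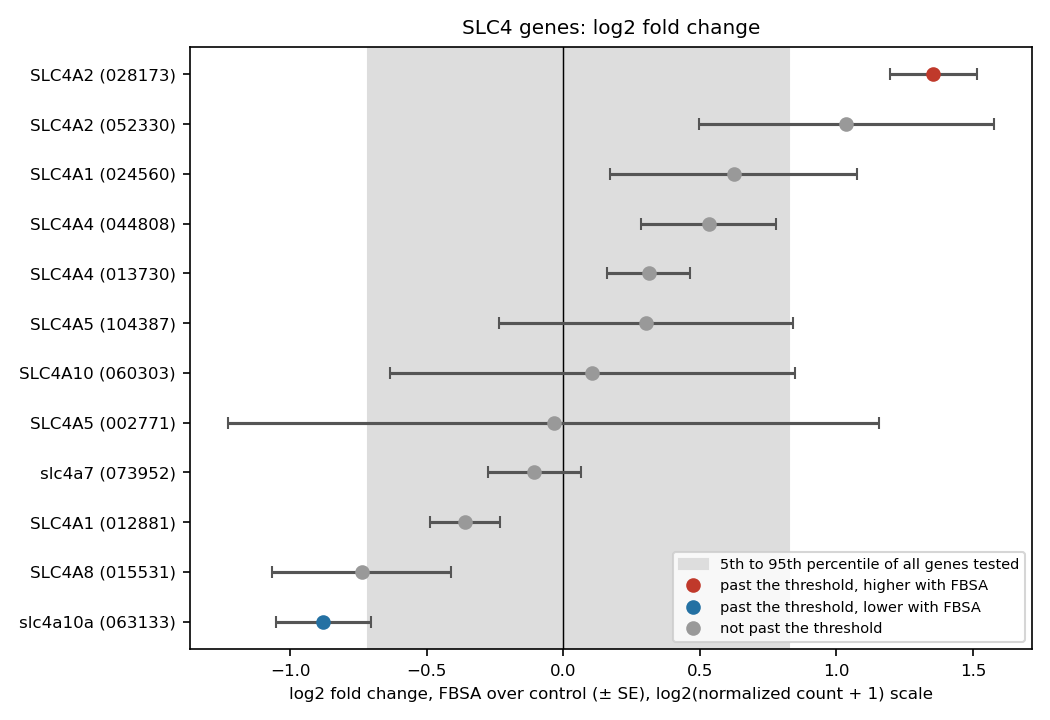
Log2 fold change of each SLC4 gene, FBSA over control, with its SE (horizontal axis), the gray band marking the 5th to 95th percentile of all 16890 genes tested, from −0.71 to 0.82. SLC4A2 (ENSDARG00000028173) at 1.35 and slc4a10a at −0.88 are the 2 genes past the threshold; SLC4A2 (ENSDARG00000052330) at 1.04 and SLC4A8 at −0.74 also lie outside the band.

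The summed normalized counts of all 12 genes were level between the groups, while their make-up differed. Counts of 3′ ends were not scaled by length, so each gene's share is compared only between libraries. The 12 genes summed to 4051, 4083 and 4265 normalized counts with FBSA, against 4128, 4260 and 4044 in control, with means of 4133 ± 115 and 4144 ± 109 (SD, n = 3 each). The ratio of the means was 0.997. SLC4A2 (ENSDARG00000028173) made up 14.1%, 12.6% and 15.1% of this sum with FBSA, against 5.02%, 5.57% and 5.67% in control. The share of slc4a10a was 7.97%, 6.28% and 8.48% with FBSA, against 16.0%, 13.0% and 12.6% in control. SLC4A1 (ENSDARG00000012881) took 28.3%, 33.4% and 33.4% with FBSA, against 45.9%, 37.2% and 38.8% in control. Shares of one sum are not independent of each other.

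By class, the 4 electroneutral sodium-driven genes summed to 737, 766 and 805 normalized counts with FBSA, against 1124, 1154 and 985 in control. These sums did not overlap, and their ratio of means was 0.707. Most of the gap was slc4a10a, which made up 82.1% of the difference between the means. Without it the sums of the other 3 genes overlapped, at 414, 510 and 443 with FBSA and 463, 599 and 476 in control, a ratio of 0.889. The 4 exchanger genes SLC4A1 and SLC4A2 summed to 1832, 1953 and 2139 with FBSA, against 2147, 1862 and 1855 in control, a ratio of 1.01. Within that class SLC4A2 (ENSDARG00000028173) was higher and SLC4A1 (ENSDARG00000012881) lower with FBSA. The 4 electrogenic cotransporter genes summed to 1482, 1364 and 1321 with FBSA, against 856, 1243 and 1205 in control, a ratio of 1.26 that was 1.13 without control replicate 1.

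**Figure D3:**
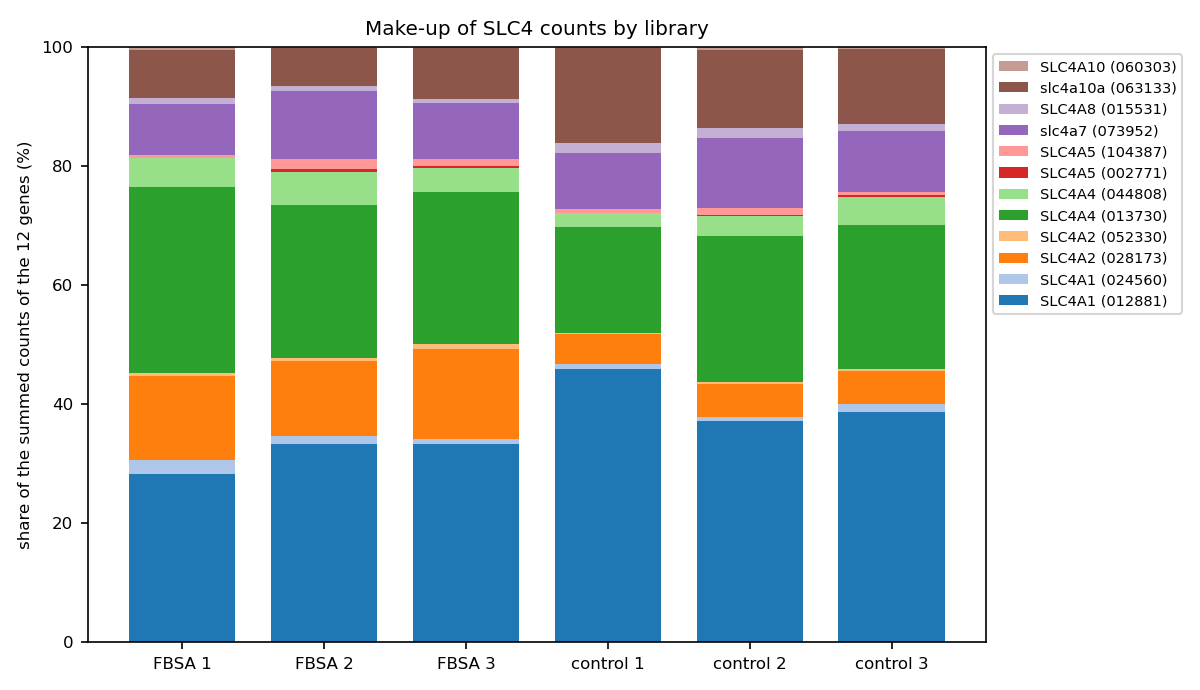
Share of the summed normalized counts of the 12 SLC4 genes (vertical axis, percent) in the 3 FBSA and then the 3 control libraries, one color per gene. The orange band of SLC4A2 (ENSDARG00000028173) is 12.6% to 15.1% with FBSA and 5.02% to 5.67% in control, and the brown band of slc4a10a is 6.28% to 8.48% with FBSA and 12.6% to 16.0% in control.

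Spread between replicates differed among the genes. For SLC4A2 (ENSDARG00000028173) the coefficient of variation was 11.1% with FBSA and 6.96% in control, where counting alone would give 4.03% and 6.80%. For slc4a10a it was 17.0% and 13.6%, against 5.47% and 4.19% from counting. The control spread of SLC4A2 was thus close to its counting error, while that of slc4a10a was larger.

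Outside the chosen members, the table holds SLC4A11 (ENSDARG00000075532) and slc4a3 (ENSDARG00000104005). SLC4A11, a family member known from the corneal endothelium in mammals, had 11.3 to 18.3 normalized counts with FBSA, against 30.2, 34.4 and 24.985 in control. The groups did not overlap, but the log2 fold change of −1.03 ± 0.48 (SE) did not pass (limma adjusted p = 0.367). The exchanger gene slc4a3 stayed below the filter, at 1.02 to 11.3 normalized counts with FBSA and 3.41 to 5.03 in control.

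In a whole embryo, fewer cells of a type and less RNA per cell cannot be told apart. Marker genes of tissues that express SLC4 genes were read in the same libraries. They do not separate these either, and no cause was tested. Of 24 neuron markers tested, ELAVL4, a neuronal RNA-binding protein gene, fell (log2 fold change −0.61 ± 0.12 SE; limma adjusted p = 0.0353), while the other 23 were not past the threshold. That call was also lost with each library left out in turn, except control replicate 1. The largest limma adjusted p was 0.141, without control replicate 3. With the replicate number as a block the call was lost too (limma adjusted p = 0.131). The log2 fold change was negative in 20 of the 24 markers, with a median of −0.37. Of the 24, 13 were lower at a limma unadjusted p under 0.05, against 6.25% of all genes tested. The abundant marker ELAVL3 was among the 4 positive, at 0.01. The mean log2 difference of the markers from the control mean was −0.23, −0.55 and −0.09 in FBSA replicates 1, 2 and 3. In the control replicates it was −0.04, 0.07 and −0.03, so FBSA replicate 2 stood furthest off. The markers' summed level was 50720 to 60601 normalized counts with FBSA and 68887 to 76209 in control, without overlap. No marker was listed at 0. ELAVL4 made up 51.1% of the difference between the means, and without it the sums still did not overlap (38305 to 44198 with FBSA, 47654 to 52248 in control). Per 1000 neuron marker counts, slc4a10a had 5.35, 5.05 and 5.97 counts with FBSA, against 9.60, 7.28 and 6.99 in control. Set against these markers slc4a10a was lower in every FBSA library than in every control, with a ratio of means of 0.686, against 0.545 before. For SLC4A8 the same ratio was 0.749, and the libraries overlapped. With ELAVL4 left out of the markers, the slc4a10a ratio was 0.638. With single libraries left out, the slc4a10a ratio over all neuron markers ran from 0.646 to 0.765. It was highest without control replicate 1.

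Among 17 ionocyte markers tested, the sodium pump subunit genes ATP1B1 (ENSDARG00000076833) and atp1a1a.2 rose. None fell, and 15 were not past the threshold. Their log2 fold changes were 0.95 ± 0.12 and 0.80 ± 0.11 (SE; limma adjusted p = 0.00316 and 0.00649). The log2 fold change was positive in 13 of the 17, with a median of 0.59. At a limma unadjusted p under 0.05, 5 were higher and 2 lower, against 7.34% and 6.25% of all genes tested. The summed level was 21232 to 23570 normalized counts with FBSA and 17712 to 22285 in control, so the groups overlapped. The ionocyte sodium-proton exchanger gene slc9a3.2 was listed at 0 in all controls and in FBSA replicate 2. Per 1000 ionocyte marker counts, SLC4A2 (ENSDARG00000028173) had 26.9, 23.8 and 27.3 counts with FBSA, against 11.7, 10.6 and 11.4 in control. The difference was nearly as large on this scale, with a ratio of means of 2.32, against 2.57 before.

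Of 13 pronephros markers tested, the phosphate transporter gene SLC20A1 (ENSDARG00000010641) rose (log2 fold change 1.03 ± 0.15 SE; limma adjusted p = 0.00932), while 12 were not past the threshold. Of the 13, 7 had a positive and 6 a negative log2 fold change, with a median of 0.14. At a limma unadjusted p under 0.05, 5 were higher and 1 was lower, against 7.34% and 6.25% of all genes tested. The higher ones were SLC20A1 (ENSDARG00000010641), its second copy ENSDARG00000020114, LRP2, SLC12A3 and aqp8b, and TRPM7 was the lower one. The list's sum was 7741 to 8423 normalized counts with FBSA and 6252 to 6812 in control, without overlap. SLC20A1 (ENSDARG00000010641) made up 92.9% of the difference between the means of the sums. Without it the sums overlapped, at 4973 to 5726 with FBSA and 4963 to 5625 in control. The markers pax8 and slc22a4 were at or near 0. Per 1000 of these counts SLC4A2 (ENSDARG00000028173) still had a ratio of means of 2.11, or 2.52 with SLC20A1 (ENSDARG00000010641) left out of the list. The sum without that SLC20A1 gene was mostly 1 gene, PAX2 (ENSDARG00000028148), at 2763 to 3831 normalized counts. None of 14 red blood cell markers passed with limma or limma-voom, and 2 (SLC4A1, ENSDARG00000012881, itself and hemgn) were lower at an unadjusted p under 0.05, against 6.25% of all genes tested. Both SLC4A1 copies are on that list. Without the SLC4 genes, SLC4A1 per 1000 red blood cell marker counts was 8.28, 10.7 and 8.63 with FBSA, against 11.1, 9.75 and 9.97 in control, and the groups overlapped on this scale. Globin genes held most of that marker sum, hbae3 alone 73019 to 104060 normalized counts, so this scale mainly follows globin RNA. Of 19 skeletal muscle markers 3 fell past the threshold, against 0.136% of all genes tested. They were TNNI2 (ENSDARG00000029995, log2 fold change −0.90), ACTA1 (ENSDARG00000055618, −0.82) and the other ACTA1 copy (ENSDARG00000036371, −0.68, limma adjusted p = 0.00767). At a limma unadjusted p under 0.05, 6 were lower and 1 was higher, against 6.25% and 7.34% of all genes tested. The log2 fold change was negative in 14 and positive in 5, with a median of −0.11. The most abundant markers, tpma and ckma, were at 0.01 and −0.03. The list's sum was 676820 to 770250 normalized counts with FBSA and 779500 to 801030 in control, without overlap. With ACTA1 (ENSDARG00000055618) left out the sums overlapped, with a ratio of means of 0.951. The calls of TNNI2 and ACTA1 (ENSDARG00000055618) were lost without FBSA replicate 1 and without control replicate 3. Over the whole list, 0 markers were called as lower without FBSA replicate 1, and 1 was without control replicate 3. No other identifier with the symbol TNNI2 was called. The most abundant, ENSDARG00000029069, had a log2 fold change of −0.09, with overlap. ENSDARG00000035958 had 0.75, with all FBSA libraries above all controls, and the sparse ENSDARG00000005841 had −2.38.

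**Figure D4:**
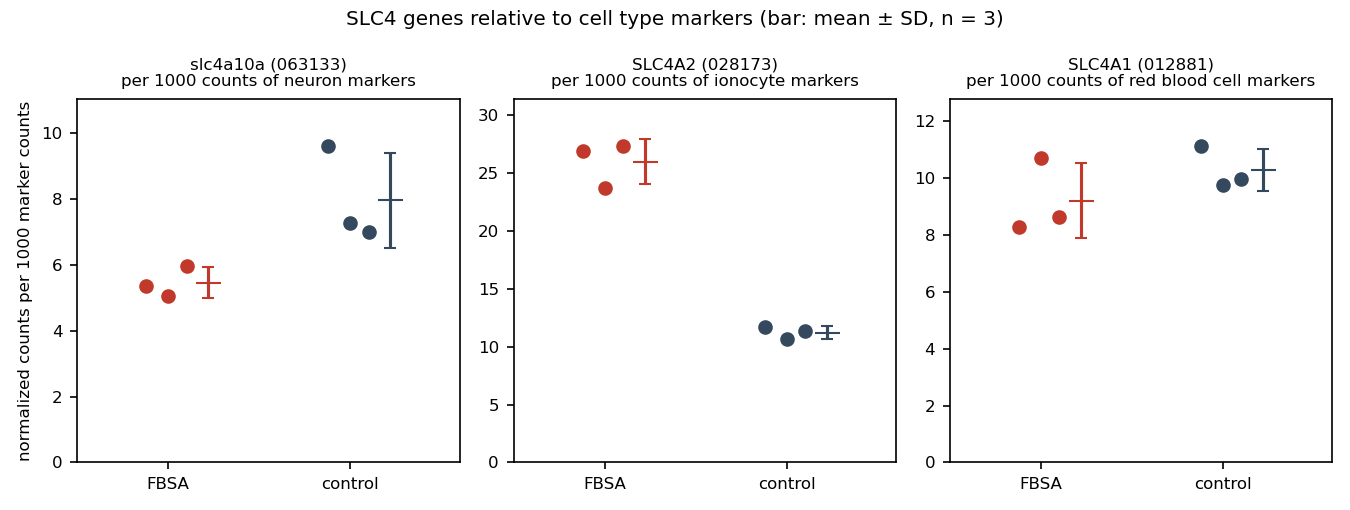
Normalized counts of slc4a10a, SLC4A2 (ENSDARG00000028173) and SLC4A1 (ENSDARG00000012881) per 1000 summed counts of neuron, ionocyte and red blood cell markers (vertical axes, from 0), FBSA left and control right, with the mean ± SD beside the points. The slc4a10a and SLC4A2 values do not overlap between groups (5.05 to 5.97 with FBSA and 6.99 to 9.60 in control for slc4a10a), while the SLC4A1 values do.

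Other genes of acid and base transport showed no call in either direction, with limma or with limma-voom on the reads. At an unadjusted p under 0.05, 2 carbonic anhydrases, 3 SLC12 genes and 1 proton pump subunit were higher with FBSA, and 5 proton pump subunits and 1 Rh channel were lower. Over all genes tested, 7.34% were higher and 6.25% lower at that level. The SLC26 and SLC9 lists had 0 genes there. Carbonic anhydrases, which make the bicarbonate that SLC4 proteins carry, had 11 genes tested and 0 past the threshold, with a median log2 fold change of 0.22. The listed gene ca15c stayed below the filter and was not tested. It was at 0 in all FBSA libraries, against 15.1, 5.93 and 12.5 normalized counts in control. The cytosolic enzyme gene ca2 had the smallest p of the list, at 60.6, 74.2 and 49.8 normalized counts with FBSA, against 36.1, 19.0 and 37.5 in control (log2 fold change 1.02 ± 0.38 SE; limma adjusted p = 0.271). None of 4 SLC26 anion exchangers passed (median −0.19), and SLC26A1 had the smallest p (log2 fold change −0.78 ± 0.43 SE). Among 9 SLC9 sodium-proton exchangers 0 passed (median 0.18).

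Cation-chloride cotransporters of the SLC12 family had 0 of 11 past the threshold, with a median of 0.22. SLC12A7 (ENSDARG00000062058), a potassium-chloride cotransporter gene, had 579, 565 and 600 normalized counts with FBSA, against 357, 429 and 426 in control, without overlap (log2 fold change 0.53 ± 0.14 SE; limma adjusted p = 0.143). Of 25 subunit genes of the V-type proton pump 0 passed, with a median of −0.08. In 8 of these 25 all FBSA libraries lay below all controls, against 9.91% of all genes tested, and the smallest p was that of ATP6V1A (ENSDARG00000076318; log2 fold change −0.47 ± 0.18 SE). Neither of the 2 Rh ammonia channel genes tested passed, and RHBG was at 851, 616 and 699 normalized counts with FBSA, against 890, 1249 and 1166 in control (limma adjusted p = 0.137).

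**Figure D5:**
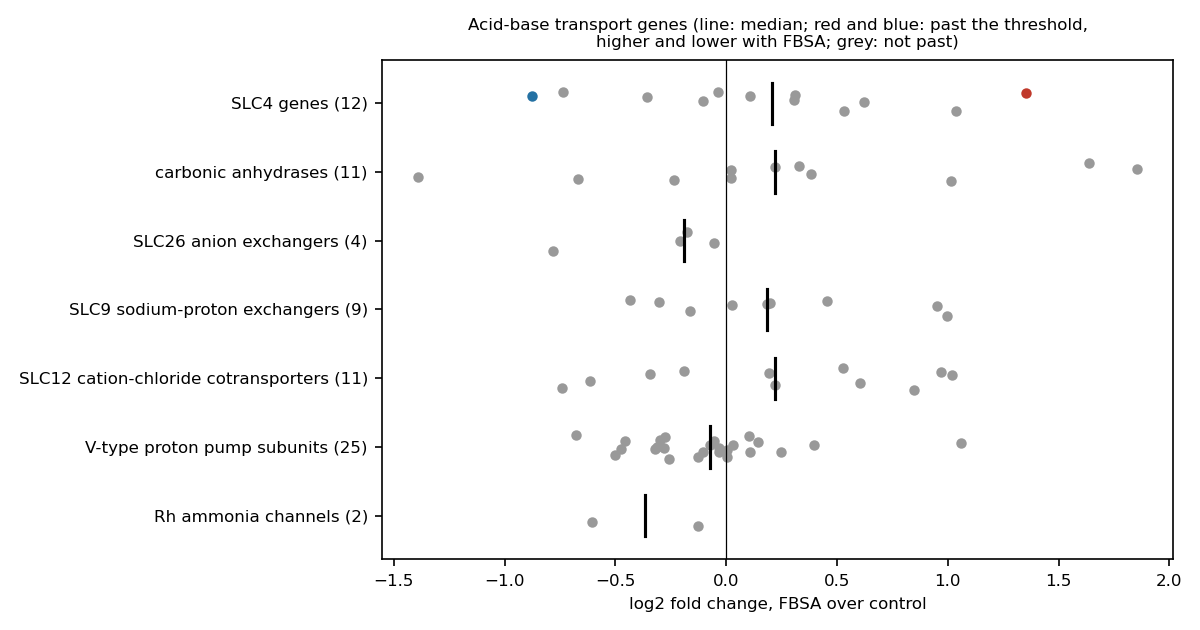
Log2 fold change, FBSA over control (horizontal axis), of each tested gene in the SLC4 family and in 6 lists of acid-base transport genes, with the number of genes in brackets and a line at each median. The SLC4 family, chosen for its values, holds the 2 genes past the threshold (slc4a10a, blue; SLC4A2, red), and all points of the other lists are gray.

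The genes most like SLC4A2 (ENSDARG00000028173) over the 6 libraries were found by the Euclidean distance between log2 values centered on each gene's mean, among 14613 genes. They were anxa1b, an annexin gene (distance 0.271), zgc:153352 (0.32) and nppa, a natriuretic peptide gene (0.326). anxa1b had 2657, 2212 and 2581 normalized counts with FBSA, against 833, 1037 and 1141 in control. For slc4a10a they were NECAB2, a neuronal calcium-binding protein gene (0.252), ACTA1 (ENSDARG00000055618; 0.26) and LDHA, a lactate dehydrogenase gene (0.28). NECAB2 had 246, 212 and 260 normalized counts with FBSA, against 444, 453 and 384 in control. A small distance mainly reflects a similar gap between the groups.

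Gene order in RefSeq (assembly GRCz12tu) places tbr1a, a forebrain transcription factor gene, next to slc4a10a. It had 6.10 to 19.0 normalized counts with FBSA and 3.56 to 16.8 in control, with overlap (log2 fold change 0.41 ± 0.75 SE). The gene on the other side, b3gnt5a, had no match by symbol.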

How the data were processed

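Whole-embryo 3′ RNA sequencing libraries, 3 with FBSA and 3 controls, were prepared with a Lexogen QuantSeq kit, per the labels' protocols. Per the submitters' processing notes, the genome build was GRCz11 and the tools were STAR, HTSeq and DESeq2, and neither versions nor annotation nor filters were given. The authors deposited log2 values, in a table whose name speaks of normalized counts. Its header lacks a name for the gene IDs, so the 6 names were moved by 1 cell. Inverting the formula of a variance-stabilising transform gave whole reads (100% of 125409 values above the floor within 0.1 of a whole number) divided by size factors that equal the median of ratios.

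Because the deposited unit was log2, the main test was limma 3.58.1 in R 4.3.3 (two-sided, moderated with a trend, group as the only term) on log2(recovered normalized count + 1), with Benjamini-Hochberg adjustment over 16890 genes. The added 1 shrinks differences between low counts. In low genes, fold changes on this scale can differ from the ratio of mean counts in either direction. For SLC4A5 (ENSDARG00000002771) the log2 fold change was −0.04, against a ratio of means of 1.46. The test and the recovery were tested on simulated data. No 2 libraries agreed within sampling noise (chi-square per degree of freedom 10.8 to 57.6). Both libraries numbered 2 stood at opposite ends of principal component 1 (34.3% of the variance). Members, lists and tests were chosen with earlier results of these data known. Named outside the family were the 2 largest changes in each direction past the threshold of each list, or else the gene with the smallest p, other slc4 genes, and the 3 genes most like SLC4A2 and slc4a10a with a mean of 20 or more. The gene this rule takes from the sodium-proton exchanger list is not reported here. Marker ratios, class sums and sums without the gene that carries most of their difference were added after the values were seen. So were neighboring genes and further named genes of the lists. Symbols came from a name table that matched 22817 identifiers, with stems matched where no paralogue symbol was found. Alternatives covered the pseudocount, filter, scaling, scale, replicate block, robust moderation, limma-voom and left-out libraries. Since reads carry no molecular identifiers, intervals cover counting error only. Tables and plots were made in Python 3.11.15 (pandas 2.3.3, numpy 2.4.6, matplotlib 3.10.9).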

Additional observations from a re-analysis of the deposited data

How the results depend on the processing

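SLC4A2 (ENSDARG00000028173) stayed past the threshold under all 17 alternatives, with limma adjusted p from 0.000787 to 0.0241. The call of slc4a10a held under 9 of 17 and was lost with each library left out (log2 fold change from −0.99 to −0.74), without both libraries numbered 2, an alternative chosen after seeing the data (−0.76; limma adjusted p = 0.0849), and with the replicate number as a block (−0.88; limma adjusted p = 0.122). The number of SLC4 genes called as lower was 0 in each of these settings. Its adjusted p over all alternatives ran from 0.0254 to 0.15. The other 10 genes were past the threshold under none. Same-numbered libraries did not deviate together (correlations of 0.02, −0.14 and −0.005), so the numbers give no pairing; with the replicate block 40 genes were higher and 7 lower over all genes. Leaving out each library gave 46 to 87 higher genes and 4 to 23 lower. The summed family ratio ran from 0.971 to 1.02. Under the other scalings the median over all genes lay at −0.02 and −0.04 (log2). SLC4A5, SLC4A10 (ENSDARG00000060303) and SLC4A2 (ENSDARG00000052330) had few reads in single libraries. The spread of SLC4A5 and SLC4A10 between replicates was above counting error in both groups, so depth alone does not set their precision.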
